A study of Mus musculus with 6 samples.

Results

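Pericytes of the tissue around an infarct were compared between heart and brain, with 1 single-cell library for each organ. The cells were chosen by their own transcripts. A cell had to have at least 500 genes detected, at most 10% mitochondrial UMIs (unique molecular identifiers, each counting 1 captured RNA molecule), and a UMI of at least 3 of the 5 pericyte markers Kcnj8, Abcc9, Vtn, Higd1b and Pdgfrb. It also had to have fewer than 5 UMIs per 10000 of Myh11, the smooth muscle myosin, and no UMI of Cdh5 (endothelial cadherin), Pdgfra (a fibroblast receptor) or Ptprc (the leukocyte antigen CD45). The rule chose 530 of 9580 barcodes in the heart library and 1001 of 2589 in the brain library, which is 1531 of the 12169 barcodes of both and of the 44766 in all 6 libraries of the series.

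All mice carried the alleles Tbx18CreER/+;Rosa26tdT/+, in which tamoxifen starts lasting expression of the red protein tdTomato in cells whose Tbx18 promoter is active, and in their descendants. All groups, sham included, received tamoxifen for 4 days with a week of washout, and tdTomato-positive cells were sorted for 3′ sequencing (10x Genomics). The heart groups were sham, infarct and peri-infarct tissue of hearts without atria, injured by tying off the left anterior descending artery, digested with collagenase and dispase. The brain groups were sham, infarct and peri-infarct cortex after photothrombosis, a light-induced clotting of cortical vessels, digested with a commercial adult brain kit. The ages, the number of animals per library and the time after injury are not given in the sources used here. Organ, way of injury and digestion changed together and cannot be told apart, and with 1 library per group no difference has a replicate check. The intervals below cover counting error only.

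Pericytes sit on capillaries within the basement membrane they share with the endothelium, and they steady the vessel wall and help set capillary tone. In the brain most of them derive from the neural crest, and they support the blood-brain barrier and take part in solute exchange. In the heart most of them derive from the epicardium, a layer of the mesoderm. Whether pericytes of both organs take on a fibrotic programme after injury is the question raised by the title of the series.

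The cells of both organs carried the transcripts that usually define pericytes. These levels chose the cells and are given only as a description. Heart cells had 1010.1 CPM (UMIs per 1000000 UMIs of the summed cells) of Kcnj8 and 1051 of Abcc9, the subunits of a potassium channel, and brain cells had 1643 and 1763. Pdgfrb, the receptor that recruits pericytes to vessels, stood at 1150.5 CPM in heart and 2015 in brain. Vtn, the adhesive protein vitronectin, stood at 902 and 22241 CPM, and Higd1b, a mitochondrial protein, at 1141 and 2526. All 5 markers were detected in 403 heart and 771 brain cells, 4 in 88 and 178, and 3, just inside the limit, in 39 and 52, while 117 heart and 36 brain cells with 2 markers lay just outside. Rgs5, a pericyte marker that the rule did not use, was about level, at 9811 CPM in heart and 8783 in brain, and was present in 95.4% and 99.1% of cells when each cell was thinned to 1000 UMIs. Its share in endothelial cells of the same libraries (median depth 5743 and 2929 UMIs) was 47.7% and 65.3%. Endothelial cells are given beside such shares because RNA released from broken cells reaches every droplet. They were chosen without a Pdgfrb or Kcnj8 UMI, so their shares of pericyte genes can understate such RNA.

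Some facts of the libraries bear on every value below. The heart cells were deeper, with a median of 5078.5 UMIs and 2165 genes against 2071 UMIs and 1285 genes in brain, and their summed UMIs were 3247255 and 2437833. The exclusion of Cdh5, Pdgfra and Ptprc removed 472 of 1002 heart cells (47.1%) and 134 of 1135 brain cells (11.8%), with Cdh5 present in 350 and 130 of them. Markers of endothelial cells stood in the chosen cells at 5.94% of their level in the whole library in heart and 42.5% in brain. Cldn5 is among these markers, and its 623 UMIs in the brain cells lay in 77 of the 1001. The 10 macrophage markers summed to 12.01 CPM in heart and 119.8 in brain, and the 19 cardiomyocyte markers to 109.9 and 28.3. Cells of both sexes are present in brain by their transcripts (468 with Xist and no Y-linked UMI, 181 with Y-linked UMIs and no Xist), while 503 of the 530 heart cells had Xist and 1 a Y-linked UMI. A total of 204 barcodes occurred in both libraries, 1 of them among the chosen cells of both.

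Brain pericytes carried more genes above their heart counterparts than the reverse. Of 3641 genes that averaged 50 CPM or more over both libraries, 324 (8.9%) were at least 2-fold higher in heart and 602 (16.5%) at least 2-fold higher in brain, by the ratio of CPM + 1. The balance depends on the scaling. With TMM factors, which set the bulk of genes level, 477 genes were higher in heart and 384 in brain, so the heart share of these genes rose from 35.0% to 55.4%. The median log2 ratio of heart over brain over all genes was -0.22 with library totals and 0.07 with TMM. With totals that left out mitochondrial, ribosomal protein and Malat1 UMIs, the counts were 474 and 519. A gene near 0 in 1 organ passes the filter only where the other organ is high, and its difference then follows from the filter. This bears on the counts and medians of the gene lists below too. Of the 3641 genes, 2771 reached 50 CPM in both organs, and 184 of these were at least 2-fold higher in heart and 262 in brain. The genes farthest from the diagonal were those present in 1 organ and at or near 0 in the other, and no named gene that was 2-fold apart changed sides under either scaling.

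**Figure D1:**
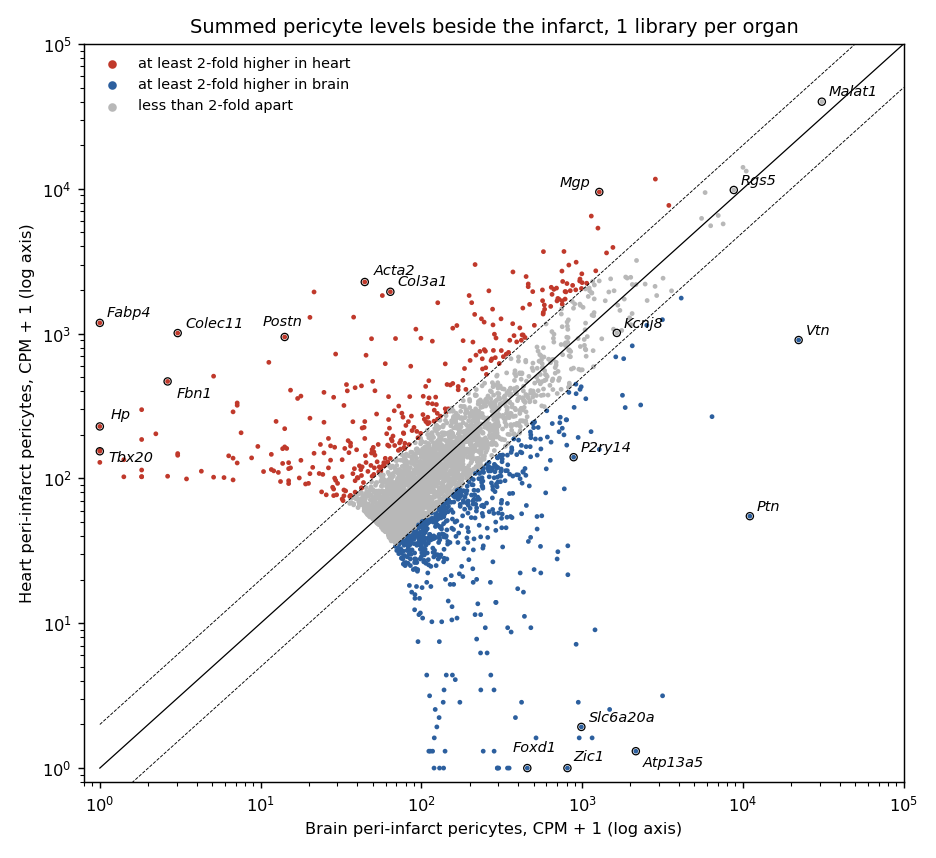
Level of each of 3641 genes in the summed pericytes beside the infarct, brain on the x axis and heart on the y axis, both as CPM + 1 on log axes; each point is a gene, the solid line marks equal levels and the dashed lines 2-fold differences. Red points (324) lie above the upper dashed line and blue points (602) below the lower one, while Rgs5 and Malat1 lie between them.

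The organs differed in transcription factors. Brain pericytes carried the zinc-finger factors Zic1 and Zic4, which pattern the dorsal nervous system and meninges, and the forkhead factors Foxd1, Foxf2 and Foxc1, while heart pericytes carried Tbx20, a T-box factor of the developing heart. To show what lies before the start of factors among the 15 highest and 15 lowest ratios with no UMI in 1 organ, 200 bases follow for 3 of them. The stretches end 50 bases before the RefSeq start, run 5′ to 3′ on the strand of the gene and come from RefSeq on GRCm38.p6, with every CG dinucleotide in capitals. Zic1 is at chr9:91365819-91366018 (minus strand), Foxd1 at chr13:98353995-98354194 (plus) and Tbx20 at chr9:24774354-24774553 (minus).
Zic1: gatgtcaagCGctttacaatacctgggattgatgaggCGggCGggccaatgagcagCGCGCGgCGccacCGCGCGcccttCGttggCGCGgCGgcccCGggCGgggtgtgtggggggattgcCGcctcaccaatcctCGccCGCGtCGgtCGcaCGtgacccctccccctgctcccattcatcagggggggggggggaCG
Foxd1: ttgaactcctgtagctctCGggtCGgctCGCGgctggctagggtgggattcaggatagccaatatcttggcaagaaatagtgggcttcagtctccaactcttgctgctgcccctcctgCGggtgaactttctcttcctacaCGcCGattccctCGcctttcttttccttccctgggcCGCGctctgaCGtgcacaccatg
Tbx20: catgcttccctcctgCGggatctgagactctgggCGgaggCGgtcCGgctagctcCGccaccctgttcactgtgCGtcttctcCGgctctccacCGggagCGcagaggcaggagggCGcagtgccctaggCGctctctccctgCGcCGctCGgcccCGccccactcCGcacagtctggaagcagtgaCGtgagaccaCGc
The stretch of Zic1 holds 24 CG dinucleotides, a number that 5.59% of the 32851 promoters in the table reach over the same bases. That of Tbx20 holds 18 (12.4%) and that of Foxd1 holds 11 (26.7%), against a median of 4. CG reads the same on both strands, so 1 search covers both. These counts describe the letters only.

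Zic1 (ENSMUSG00000032368, chromosome 9, 91358058 to 91365810, minus strand; gene positions are on mm10 with GENCODE vM21 names) had 0 UMIs in the 530 heart cells and 809.7 CPM in the brain cells, at least 876-fold higher in brain when the heart is given a floor of 3 UMIs. At 1000 UMIs per cell, 53.2% of brain cells had a Zic1 UMI, and 0 of 526 heart cells did, which by a floor of 3 counts allows a share with a UMI of up to 0.570% and does not limit the share that express the gene. Thinning left out 4 heart and 30 brain cells below 1000 UMIs, and without it the brain share was 77.8%. Brain endothelial cells had one in 1.63% of cases and brain fibroblasts in 47.7%, so other cells sorted with the pericytes carried it too. The brain fibroblasts here and below are 86 cells called by marker. In them 10 arachnoid and meningeal markers summed to 114460 CPM, against 813 in heart fibroblasts, so the name does not set them apart from meningeal cells. Zic4 stood at 297 CPM (at least 321-fold), Foxd1 at 455 (at least 493-fold) and Zic2 at 137 (at least 148-fold), all with 0 heart UMIs. The annotated Zic1 and Zic4 genes overlap on opposite strands. Zic2 was found in 12.2% of thinned brain endothelial cells and 13.2% of the pericytes, and the part of free RNA in its level was not tested. Foxf2, a factor needed by brain pericytes, stood at 119 CPM against 0.616, and Foxc1 at 290.4 against 12.9. Of 16 brain mural factors in the list 9 passed the CPM filter, 7 of them only through their level in brain. Of the 9, 6 were higher in brain and 0 in heart, with a median log2 ratio of -6.22, a description that the filter in part fixes. The other members that passed were less than 2-fold apart, among them Foxs1 at 169 CPM in heart and 225 in brain.

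Tbx20 (ENSMUSG00000031965, chromosome 9, 24718138 to 24774303, minus strand) had 153 CPM in heart and 0 UMIs in brain, at least 124-fold higher in heart. It was found in 12.6% of thinned heart pericytes, 0.59% of heart endothelial cells and 25.9% of heart fibroblasts. Ebf2, a helix-loop-helix factor of mesenchymal cells, stood at 128 CPM against 0 (at least 104-fold). Of 13 cardiac mesoderm factors only 3 passed the filter, and the other 2, Mef2c and Hopx, were less than 2-fold apart. Isl1 and Nkx2-5 had no UMI in either organ. Among factors of mural cells in general, Tbx18 itself stood at 41.6 CPM in heart and 100.5 in brain, and Prrx1, a factor of mesenchyme, at 366 against 83.7. Of 15 such factors past the filter, 2 were higher in heart and 7 in brain, beside 8.9% and 16.5% of all genes. Of the 15, 1 passed only through heart and 3 only through brain. Of the 11 at 50 CPM or more in both organs, 1 was higher in heart and 4 in brain.

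Solute transporters past the filter were mostly higher in brain than in heart pericytes, which the filter in part fixes. Of 13 past the filter, 9 of them only through brain, 11 were higher in brain and 0 in heart, beside 16.5% and 8.9% of all genes. Their median log2 ratio was -2.79. Of the 4 at 50 CPM or more in both organs, 2 were higher in brain and 0 in heart. Other cells of the brain library held as much: the 32 transporters summed to 5778 CPM in pericytes, 7528 in endothelial cells and 7858 in fibroblasts. Slc6a20a, a transporter of proline and other imino acids, stood at 989 CPM in brain against 0.924 in heart, where 3 UMIs were counted; the CPM ratio lay between 366 and 5192. Slc22a8, an organic anion transporter, stood at 516 CPM against 0.616, Slc19a1, the folate carrier, at 917 against 6.16, and Slc30a10, which exports manganese, at 351 against 0 (at least 379.6-fold). These differ in how far other cells shared them. Slc22a8 was present in 24.9% of thinned brain endothelial cells and 32.6% of fibroblasts against 41.3% of pericytes, and Slc30a10 in 0 of 245 and 12.8% against 30.6%. The glucose transporter Slc2a1 stood at 146 CPM in brain pericytes and 13.2 in heart ones, beside 2055 in brain endothelial cells. Its 356 UMIs in brain pericytes lay in 100 of the 1001 cells. The part of free RNA or of mixed cells in its level was not tested.

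Atp13a5 (ENSMUSG00000048939, chromosome 16, 29231851 to 29378732, minus strand), a P-type ATPase known as a marker of brain pericytes, had the lowest log2 ratio of all named genes (-10.69). It stood at 2158 CPM in brain and 0.308 in heart, where 1 UMI was counted, and at 2422 and 1462 CPM in brain sham and infarct. It was found in 83.4% of thinned brain pericytes, 0.816% of endothelial cells and 17.4% of brain fibroblasts. Within the brain pericytes, Zic1 was found in 54.2% of cells with an Atp13a5 UMI and 48.5% of cells without, so detection of the pair did not divide the cells at this depth. Ptn, the growth factor pleiotrophin, stood at 11057 CPM against 53.9. Ptn was in 99.5% of brain pericytes but also in 71.0% of brain endothelial cells (1487 CPM) and 96.5% of brain fibroblasts (9306 CPM). Of 21 brain pericyte signals past the filter, 7 passed only through brain and 1 only through heart. Of the 21, 16 were higher in brain and 1 in heart, beside 16.5% and 8.9% of all genes, with a median log2 ratio of -3.01. The list was named for brain pericytes and chosen with earlier results of these data known, so its lean toward brain is a description only. Of the 13 at 50 CPM or more in both organs, 9 were higher in brain and 0 in heart. The list summed to 51597 CPM in brain pericytes, 45098 in brain fibroblasts and 12050.0 in brain endothelial cells. It included the TGF-beta family ligand Nodal (296 CPM against 0, at least 320.1-fold), the glutathione-cleaving enzyme Ggt1 (343 against 0, at least 371-fold) and the laminin chain Lamc3 (283 against 0.308). The member higher in heart was Aoc3, an amine oxidase of vessel walls, at 287 CPM against 5.74. The creatine-synthesis enzyme Gatm, at 1483 CPM against 1.54, and the carbonic anhydrase Car4, at 946 against 1.85, were also among the lowest ratios, and both were common in brain endothelial cells (38.0% and 39.6%).

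Among receptors and channels that set vascular tone, more were higher in brain than in heart. Of 18 past the filter, 9 were higher in brain and 2 in heart, beside 16.5% and 8.9% of all genes. Of the 18, 4 passed only through brain and 1 only through heart. Of the 13 at 50 CPM or more in both organs, 5 were higher in brain and 1 in heart. P2ry14, a receptor for UDP-sugars, stood at 885 CPM in brain and 139 in heart, a 6.32-fold difference (95% counting interval of the CPM ratio 5.74 to 7.05). The parathyroid hormone receptor Pth1r stood at 774 against 83.8 CPM, and the thromboxane receptor Tbxa2r at 479 against 8.31. Brain endothelial cells held little of these, with 0.408%, 2.86% and 1.63% of thinned cells against 57.3%, 50.9% and 38.7% of pericytes. The endothelin receptor Ednrb went the other way, at 146 CPM in heart and 10.7 in brain, although heart endothelial cells carried it in a like share (7.08% against 9.70%). Rgs4, which shortens G-protein signals, stood at 2314 CPM in brain and 321 in heart. Genes of Notch signalling, by which endothelium instructs mural cells, followed: 6 of 8 past the filter were higher in brain and 0 in heart, with a median of -1.83. Of the 8, 2 passed only through brain. Of those at 50 CPM or more in both organs, 4 of 6 were higher in brain and 0 in heart. Notch2, counted as higher in brain and under 50 CPM in heart, turned from -2.21 to 4.10 with free RNA subtracted. That step took 42.5% of the whole-library level from the brain cells and set values below 0 to 0. With Notch2 at 17.25 CPM in heart before it, a ratio of 4.10 means that the brain level was left at or near 0. Jag1, a Notch ligand, stood at 342 CPM against 66.2 and the receptor Notch1 at 353 against 77.6.

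Heart pericytes carried far more matrix. Of 15 fibrillar and associated collagens 11 passed the filter, 8 of them only through heart, and these 11 were higher in heart, with a median log2 ratio of 3.97. Col3a1 (ENSMUSG00000026043, chromosome 1, 45311538 to 45349706, plus strand), the collagen of elastic tissues, stood at 1944 CPM in heart and 63.2 in brain, a 30.3-fold difference (26.2 to 36.3). Col1a1 (ENSMUSG00000001506, chromosome 11, 94936224 to 94953042, plus strand), the main scar collagen, stood at 708 against 44.3 CPM, and the brain value rested on few cells: 5 of the 1001 held 94.4% of its 108 UMIs. The collagen VI chain Col6a3 stood at 297 CPM against 0.82 on 2 brain UMIs, a ratio between 100.1 and 2998, and Col5a1 at 148 against 2.05. A Col3a1 UMI was found in 66.3% of thinned heart pericytes, against 3.42% of heart endothelial cells and 93.3% of heart fibroblasts, and in 3.19% of brain pericytes against 0 of 245 brain endothelial cells. Collagen transcripts were spread widely over the heart cells: a thinned heart pericyte held a median of 4 UMIs of the 15 collagens, from 1 at the tenth percentile to 10 at the ninetieth, and 7.22% held none. In brain the median was 0 and 73.1% held none.

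Fibroblast transcripts were counted beside these collagens. The 12 fibroblast markers, which include Col1a1, summed to 4238 CPM in heart pericytes, 38244 in heart fibroblasts and 557 in heart endothelial cells. Gsn, an actin-severing protein, stood at 1294 CPM in the pericytes and 11576 in the fibroblasts, and Dcn, the proteoglycan decorin, at 928 and 11848, with 36.2% of the Dcn UMIs in 5 cells. Their part in the collagen levels was not tested.

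Other matrix genes followed the collagens. Of 14 matrix glycoproteins past the filter, 7 of them only through heart, 10 were higher in heart and 0 in brain, with a median of 1.91. Periostin (Postn, ENSMUSG00000027750, chromosome 3, 54361109 to 54391037, plus strand), a matricellular protein of healing tissue, stood at 947 CPM against 13.1, a 67.1-fold difference (51.0 to 106), and was found in 47.7% and 0.927% of thinned cells. Fibrillin (Fbn1) stood at 467 against 1.64 CPM and fibronectin (Fn1) at 617 against 139.9. Mgp, which keeps matrix from calcifying, was one of the 10 most abundant heart transcripts, at 9508 CPM against 1279 in brain. Collagen processing had 4 of 12 genes higher in heart and 0 in brain, among them the crosslinking enzyme Loxl2 (247 against 11.5 CPM) and the collagen chaperone Serpinh1 (1264 against 312). Of the 12, 3 passed only through heart, and of the 9 at 50 CPM or more in both organs 1 was higher in heart. Proteases and inhibitors had 8 of 14 higher in heart, led by Adamts12 (103 against 1.64) and Serpine2, protease nexin, which blocks thrombin (924 against 68.1), and 2 higher in brain, Mmp15 and Plat. Of these 14, 5 passed only through heart and 1 only through brain. Of the 8 at 50 CPM or more in both organs, 3 were higher in heart and 1 in brain.

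The basement membrane was split by chain rather than shifted, with 5 of 15 genes higher in each organ and a median of -0.38. Of the 15, 2 passed only through heart and 1 only through brain. Of the 12 at 50 CPM or more in both organs, 3 were higher in heart and 4 in brain. Collagen IV stood higher in heart (Col4a1 at 2478 CPM against 448), as did Col15a1 (331 against 6.15) and Sparc, a collagen-binding protein (6481 against 1139.9). Of 6 laminin chains past the filter 4 were higher in brain and 0 in heart, with Lamc1 at 770.4 CPM against 199 and Lamb2 at 344 against 123. Basement membrane genes past the filter that were less than 2-fold apart included Nid1, at 474 CPM in heart and 379 in brain.

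**Figure D2:**
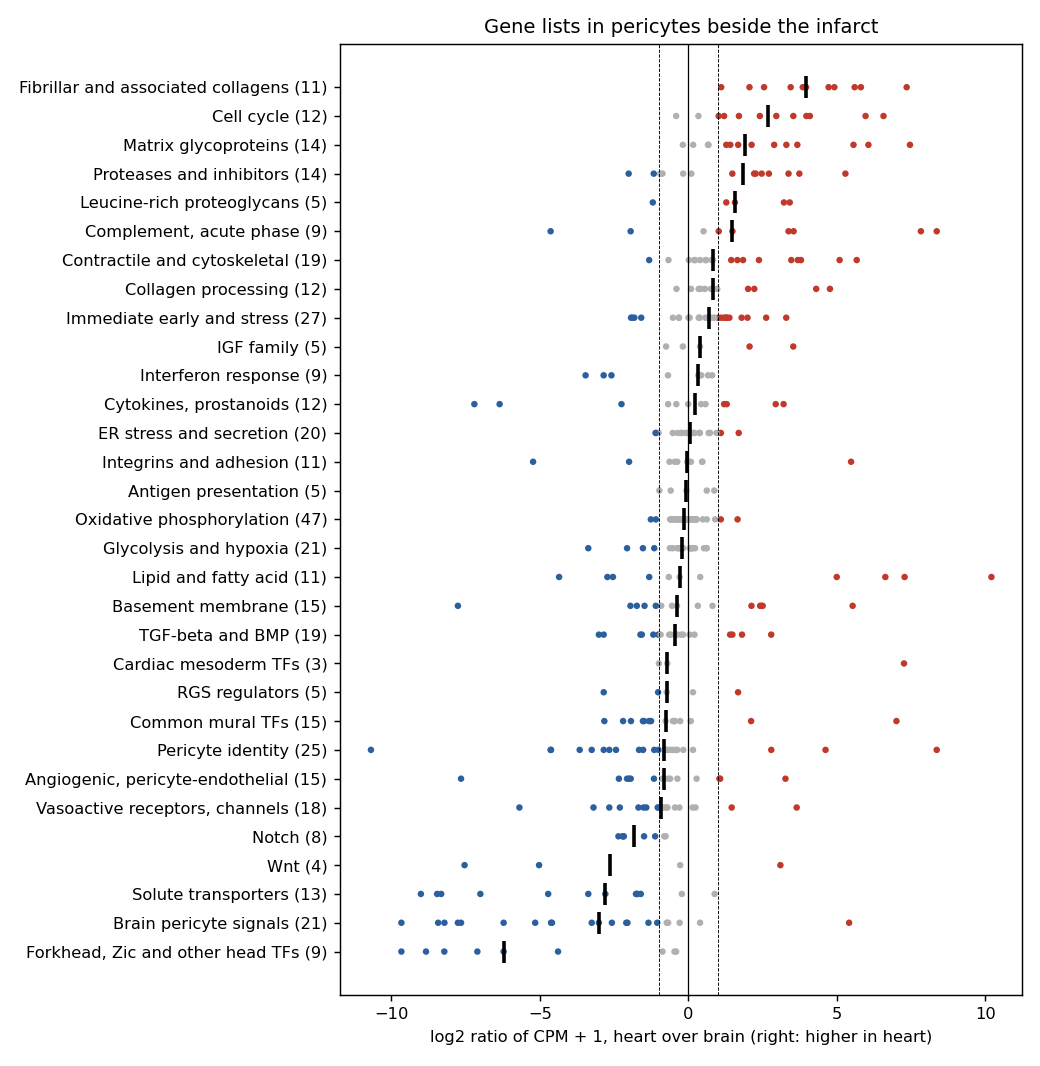
Log2 ratio of CPM + 1, heart over brain, for the genes of each list that passed the CPM filter (their number in brackets); each point is a gene, red at least 2-fold higher in heart, blue in brain, and the black bar is the median of the list. Collagens lie wholly to the right, with a median of 3.97, and the brain factors of the forkhead and Zic families mostly to the left, with a median of -6.22.

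Contractile and cytoskeletal genes were higher in heart for 9 of 19 and in brain for 1, Myl9 (2051 CPM against 823). Of the 19, 4 passed only through heart, and of the 15 at 50 CPM or more in both organs 5 were higher in heart. Acta2 (ENSMUSG00000035783, chromosome 19, 34241090 to 34255590, minus strand), smooth muscle actin, stood at 2271 CPM in heart and 43.5 in brain, and Tagln, its partner transgelin, at 1298 and 36.9. Smooth muscle cells of the heart library, which the Myh11 limit was meant to keep out, held 13741 and 11515 CPM. Thinned heart pericytes had an Acta2 UMI in 40.3% of cells and a Tagln UMI in 31.4%, and Tagln was found in 53.8% of the cells with Acta2 against 16.2% of those without. Col1a1 was found in 38.2% and 25.8% of the same groups of cells, and Acta2 in 40.1% of the cells with a Col3a1 UMI and 40.7% of those without. Heart pericytes with an Acta2 UMI and those with a collagen UMI thus overlapped at this depth. These shares count cells with at least 1 UMI, so they do not show whether cells rich in either form separate sets. Vimentin (Vim), a filament protein, stood at 2998 against 215 CPM, with brain endothelial cells above brain pericytes (1673).

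Lipid and fatty acid genes were split between the organs, with 4 of 11 past the filter higher in heart, 4 higher in brain and a median of -0.29. Of the 11, 3 passed only through heart and 4 only through brain. Fabp4, a fatty acid carrier, stood at 1185 CPM against 0 in brain (at least 963-fold), and Cd36, which takes up fatty acids, at 155 against 0 (at least 126-fold). Both are endothelial markers in the heart: Fabp4 stood at 21713 CPM in heart endothelial cells and 40.8 in heart fibroblasts, and Cd36 at 2013 and 3.90. The pericytes thus held more of both than the fibroblasts of the same library, and much less than the endothelium. As a share of the endothelial level, Fabp4 stood at 5.46% and Cd36 at 7.71% in the heart pericytes, beside 0.817% for the endothelial gene Pecam1, 5.79% for Flt1 and 39.6% for Esam. The part of endothelial RNA in both levels was not tested. Fabp5 (1831 against 56.2 CPM) and Lpl, lipoprotein lipase (507 against 4.10), were the other 2 higher in heart, and Acsl1, Pltp, Plpp3 and Scd2 were the 4 higher in brain. Other heart cells held these 2 as well. Fabp5 stood at 2065 CPM in heart endothelial cells and 151.7 in heart fibroblasts, and Lpl at 547.5 and 632.5. Colec11, a lectin of the complement system, stood at 1008 CPM against 2.05, was found in 57.0% of thinned heart pericytes and in 1.53% of heart endothelial cells and 1.07% of heart fibroblasts, and its relative Colec12 went the other way (553 CPM in brain against 21.2). Steap4, a metalloreductase, stood at 722 against 28.3 CPM. Complement and acute phase genes were higher in heart for 6 of 9 and in brain for 2, with 4 of the 9 past the filter only through heart and 1 only through brain. Haptoglobin (Hp) rested on few cells: its 228 CPM came from 15 heart cells, and 5 of them held 82.7% of the 739 UMIs.

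**Figure D3:**
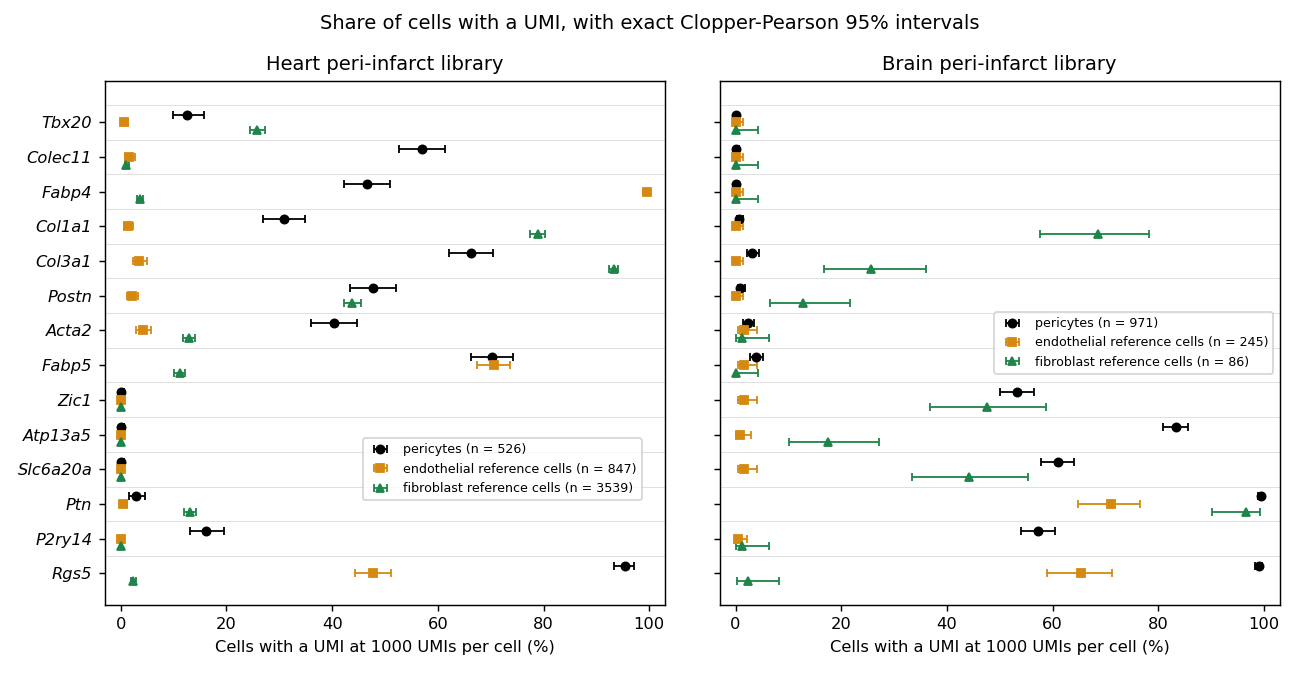
Share of cells with at least 1 UMI of each gene, in percent, after thinning every cell to 1000 UMIs, in the heart library (left) and the brain library (right); symbols mark pericytes, endothelial and fibroblast cells, and bars are exact Clopper-Pearson 95% intervals that cover counting error only. Colec11 stands at 57.0% in heart pericytes and at 1.53% or less in the other groups, whereas Zic1 is near 53.2% in brain pericytes and 47.7% in brain fibroblasts.

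Cell cycle genes stood higher in heart, on few cells. Of 27 in the list 12 passed the filter, 8 of them only through heart, and 10 of the 12 were higher in heart and 0 in brain, with a median of 2.69 that the filter in part fixes. Mki67, a marker of cycling cells that lay under the filter, stood at 97.6 CPM in heart and 0.41 in brain, where 1 UMI was counted. It was found in 3.42% of thinned heart pericytes, 4.01% of heart endothelial cells and 0.103% of brain pericytes. Prc1, which builds the division spindle, was at 134 CPM against 0.41, with 41.5% of its heart UMIs in 5 cells. For Cenpf, a centromere protein, 5 cells held 67.1% of the heart UMIs. With cells holding a Mki67 or Top2a UMI left out, Cenpf turned from 5.97 to -0.41 and Ube2c from 4.10 to -1.05. Ccnd2, a cyclin that acts earlier in the cycle, stood at 402 against 33.6 CPM.

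Several groups were near level, or stood higher in brain beside a sign of other cells. Oxidative phosphorylation had 2 of 47 genes higher in each organ, and 43 less than 2-fold apart. Endoplasmic reticulum genes had 2 of 20 in each direction, and glycolysis and hypoxia 0 of 21 higher in heart and 4 in brain. Antigen presentation had 0 of 5 genes 2-fold apart in either direction. Of 9 interferon-response genes 0 were higher in heart and 3 in brain: Ifitm1, at 1854 CPM against 308, and Ly6a and Ly6c1. The last pair are endothelial genes in brain, where Ly6c1 stood at 4541 CPM in endothelial cells and 219.9 in pericytes, and 93.5% and 5.36% of thinned cells held it. Its 536 UMIs in brain pericytes lay in 78 of the 1001 cells. Whether free RNA or mixed cells brought them was not tested. The Ifitm and Ly6 genes have close copies, and how the counting divided reads between such copies is not given in the sources used here. With free RNA subtracted, and values below 0 set to 0, Ly6c1 turned to 1.85 and Ptgds to 0.64 on the log2 scale. With Cdh5-, Pdgfra- or Ptprc-positive cells kept Ly6a stood at 0.05. Haemoglobin Hbb-bs, at 3166 CPM in brain, rested on 5 cells with 99.7% of its UMIs, and prostaglandin D synthase (Ptgds), at 419 CPM, on 5 cells with 79.7%. Ptgds stood at 110890 CPM in the brain fibroblasts of that library. Immediate early and stress genes, which digestion can raise, had 11 of 27 higher in heart and 4 in brain. Of the 27, 4 passed only through heart and 1 only through brain. Of the 22 at 50 CPM or more in both organs, 7 were higher in heart and 3 in brain. Fosb, a subunit of the AP-1 factor, stood at 243 CPM in heart against 23.8, and the heat shock gene Hspa1a at 219 in brain against 58.5.

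The same rule chose 302 and 1024 cells in heart sham and infarct, and 1352 and 408 in brain, which places the difference beside the infarct among the others. Sex by transcripts differed between these libraries. Cells with Xist and no Y-linked UMI numbered 0 in brain sham and 149 in brain infarct, against 792 and 134 with Y-linked UMIs alone. In heart sham and infarct they numbered 224 and 988, against 0 and 0. Sex thus changed with injury in brain and with organ in sham, and cannot be told apart from them. In sham, 388 of 3712 genes (10.5%) were higher in heart and 708 (19.1%) in brain. In infarct the counts were 227 of 3473 (6.54%) and 441 (12.7%). Of the 324 genes higher in heart beside the infarct, 205 were also so in sham (63.3% of them, 52.8% of the 388 of sham) and 173 in infarct (53.4%, and 76.2% of 227). Of the 602 higher in brain, 424 were so in sham (70.4%, and 59.9% of 708) and 342 in infarct (56.8%, and 77.6% of 441). Heart sham pericytes were few and shallow, with a median of 1365 UMIs, and held 23659 CPM of fibroblast markers, so the heart sham levels are given with that limit. Tbx20 varied little over heart sham, peri-infarct and infarct (159, 153 and 121 CPM) and had no UMI in the pericytes of any brain library, and Zic1 stood at 1056, 809.7 and 636 CPM in brain against at most 0.477 in heart.

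The matrix genes changed more between the tissues. Col1a1 stood at 4.61 CPM in brain sham, 44.3 beside the infarct and 745 within it, and at 655, 708 and 1553 in heart. Few brain infarct cells held it: of 386 thinned cells, 7 had Col1a1 with Col3a1 and 7 had Col1a1 without it. In heart infarct 411 and 54 of 1024 did. Col3a1 stood at 43.6, 63.2 and 641 in brain and 1146, 1944 and 3411 in heart. Both genes were highest within the infarct in both organs, and their levels beside the brain infarct were nearer to brain sham than to the brain infarct. The 12 fibroblast markers moved with them in the brain cells, at 349.8 CPM in sham, 455 beside the infarct and 2226 within it, and their part in the collagen levels was not tested. For the 11 collagens that passed the filter beside the infarct, the median log2 ratio was 4.68 in sham, 3.97 beside the infarct and 2.41 within it. The sham median uses heart sham cells, where the 12 fibroblast markers summed to 23659 CPM, against 4238 beside the heart infarct. The step from sham thus cannot be told apart from that difference. Over all genes, 22 of 3948 were at least 2-fold higher and 22 lower beside the brain infarct than in brain sham (0.557% each), against 169 and 200 of 3272 in heart (5.17% and 6.11%). These counts use the same peri-infarct libraries as the comparison of the organs. The heart counts share the limits of the heart sham library, and the brain counts compare libraries that differ in sex by transcripts.

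A few genes were less than 2-fold apart between organs in sham and farther apart beside the infarct. Serpine2 stood at 87.5 CPM in heart sham and 73.7 in brain sham, and at 924 and 68.1 beside the infarct, with 657 within the brain infarct. Fn1 stood at 147 and 89.9 in sham and 617 and 139.9 beside the infarct, with 535 within the brain infarct. Col4a1 stood at 694 and 501 in sham and 2478 and 448 beside the infarct, with 1350.2 within the brain infarct. Within the infarct the log2 ratios of heart over brain were 0.89 for Serpine2, 0.97 for Fn1 and 0.89 for Col4a1. In each case the heart value was higher beside the infarct than in sham, and the brain value moved by less than 2-fold. These 3 genes were chosen after their values were seen. In the heart sham cells endothelial markers stood at 89.8% and macrophage markers at 104.7% of their whole-library level. The heart sham values of the 3 genes thus cannot be told from library background.

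**Figure D4:**
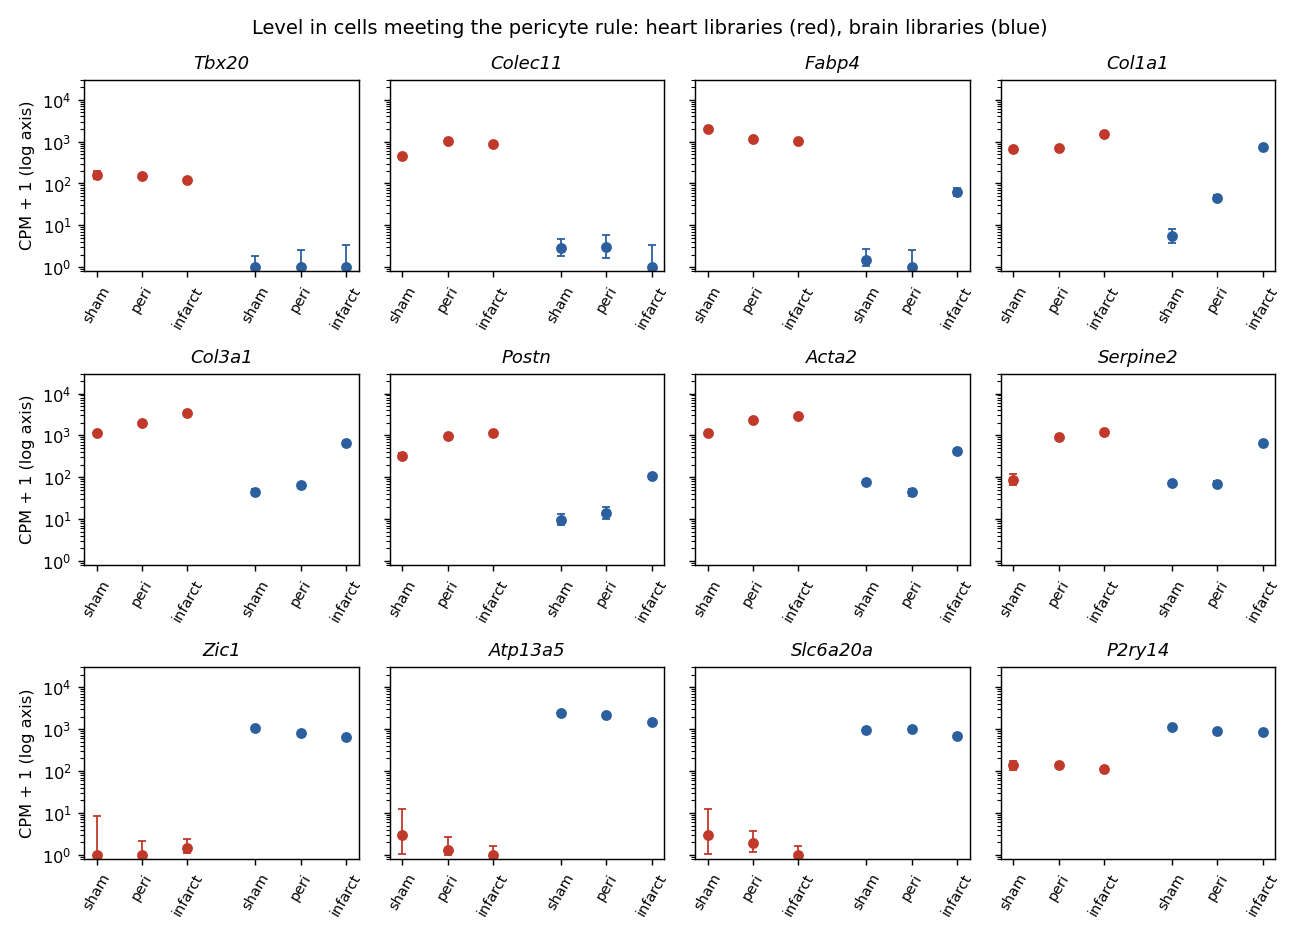
Level of 12 genes, as CPM + 1 on a log axis, in the cells that met the pericyte rule in each of the 6 libraries, with exact Poisson 95% intervals (counting error only); heart libraries are red and brain libraries blue, in the order sham, peri-infarct and infarct. Tbx20 has no UMI in any brain library and Zic1 at most 0.477 CPM in heart, while Col1a1 in brain goes from 4.61 CPM in sham to 745 in infarct, where few cells held it.

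Endothelial cells were set beside the pericytes. Endothelial cells, called by their own markers in the same libraries (847 in heart and 249 in brain), were at least 2-fold apart on the same side for 165 of the 324 genes higher in heart pericytes (50.9%) and for 260 of the 602 higher in brain pericytes (43.2%), and on the opposite side for 20 and 44. Over all 3641 genes, endothelial cells were 2-fold higher in heart for 11.1% and in brain for 11.5%. Serpine2 was on opposite sides, at 924 against 68.1 CPM in pericytes and 6.32 against 40.1 in endothelial cells. The part of free RNA in these counts was not tested.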

How the data were processed

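Single-cell 3′ libraries of sorted cells were sequenced for 6 groups, 1 library each. The authors deposited matrices of UMI counts per gene and cell, made with Cell Ranger 3.0.2 on mm10 and handled with Seurat 3, per the submitters' processing notes. Cells were chosen by the rule above, their counts summed per library and divided by the sum of all UMIs (CPM). Genes that averaged 50 CPM or more were compared by the log2 ratio of CPM + 1, and called at 2-fold. With 1 library per group no test was possible. The script was tested on simulated data. Intervals are exact Poisson or Clopper-Pearson at 95%, for counting error only, and a count of 0 was given a floor of 3 UMIs. Reference endothelial, fibroblast and smooth muscle cells were called in the same libraries by fixed marker rules. Endothelial ones had no Pdgfrb, Kcnj8, Pdgfra or Ptprc UMI, and fibroblast ones no Cdh5, Kcnj8 or Ptprc UMI. Doublets were left in and, as an alternative, scored with Scrublet (scanpy 1.11.5). Python 3.11.15, numpy 2.4.6, scipy 1.17.1, pandas 2.3.3, R 4.3.3 and edgeR 4.0.16 (TMM factors only) were used.

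The members and all 46 gene lists were chosen with earlier results of these data known. Named genes were the 15 highest and 15 lowest ratios (without ribosomal, mitochondrial, predicted, haemoglobin and sex-linked genes), up to 4 per list with the largest ratios, the 5 markers of the rule, the 10 most abundant genes of each library, and Tbx18, Rgs5, Col1a1, Col3a1, Postn, Fn1, Acta2 and Mki67. Any other gene named was chosen after its values were seen. Alternatives covered the cell filters, marker number, Myh11 limit, depth, doublets, other cell types, free RNA, scaling, averaging over cells, CPM filter and pseudocount. Leaving out Acta2-rich, cycling, haemoglobin-rich or shared-barcode cells, keeping cells with Cdh5, Pdgfra or Ptprc, a shorter list of other cell types, and brain cells with Xist alone were added after seeing the data.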

Additional observations from a re-analysis of the deposited data

Results flagged for a closer look

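For 12 genes the heart-to-brain difference pointed one way beside the infarct and the other way in another tissue, by at least 2-fold each time. These differences between tissues were not tested, since each group had 1 library.

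In the infarct 4 genes turned toward brain. Fos, a subunit of the AP-1 factor, had a log2 ratio of 1.19 beside the infarct and -1.17 within it. Its level in brain was 429.1 CPM beside the infarct and 3776 within it, against 977 and 1681 in heart. Jun stood at 1.26 and -1.11, Junb at 1.09 and -1.30, and Rasl11a, a small GTPase, at 1.30 and -1.03. For Fos, Jun, Junb and Rasl11a the brain infarct level was the highest of the 4 levels, peri-infarct and infarct in both organs.

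In sham 8 genes turned toward heart. Ly6a had a ratio of -2.85 beside the infarct and 2.17 in sham, and Ly6c1 stood at -3.46 and 1.68. Notch2, a Notch receptor, stood at -2.21 and 1.30, and Ramp2, part of the adrenomedullin receptor, at -2.06 and 1.73. Egfl7, an endothelial secreted protein, stood at -2.21 and 1.18. The kinase Pim3 stood at -1.41 and 1.36, Cdc42ep3 at -1.42 and 1.15, and the proteoglycan Prelp at -1.19 and 1.02. Endothelial markers in the heart sham cells stood at 89.8% of their level in the whole library, against 5.94% beside the heart infarct. With free RNA subtracted beside the infarct, Notch2 stood at 4.10, Ly6c1 at 1.85 and Ly6a at 0, so that these 3 no longer pointed to brain there. The subtraction set values below 0 to 0, so such a ratio can rest on that floor and does not measure a higher level in heart. The other 5 genes were not recomputed, and free RNA was not subtracted in sham.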

How the results depend on the processing

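The depth of single cells limits shares more than summed levels, and the smallest groups were 302 heart sham and 408 brain infarct cells. Of the recomputed counts 11 moved by over 1.5 times, all of them given here. Genes higher in brain beside the infarct numbered 384 with TMM, 312 at a mean of at least 100 CPM and 1140 at 20 CPM, where 569 were higher in heart; the last differences follow from the number of genes compared. In the infarct 363 were higher in heart with TMM, and 440 in heart and 720 in brain with free RNA subtracted. Of 32 gene lists, 6 had a median of at least 1 log2 unit toward heart and 5 toward brain; with free RNA subtracted these were 10 and 11. The brain number was 8 with at most 5% mitochondrial UMIs, and also 8 with Cdh5-, Pdgfra- or Ptprc-positive cells kept.

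Across these alternatives 8 of the 158 named genes turned direction, each in 1 of them. Atf3 stood at -0.37 with no Myh11 limit. With free RNA subtracted, and values below 0 set to 0, Ptgds stood at 0.64, Notch2 at 4.10 and Ly6c1 at 1.85. Cenpf stood at -0.41 and Ube2c at -1.05 without cells holding a Mki67 or Top2a UMI. Plpp3 stood at 0.16 and Ly6a at 0.05 with Cdh5-, Pdgfra- or Ptprc-positive cells kept. Apart from fewer or more cells or genes, the cause was not tested. The limit of 5 UMIs per 10000 on all other cell types left 0 cells and gave no value, and free RNA was not subtracted in sham, where its estimate for heart was 104.7%. No paired analysis was possible because each group had 1 library.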
